A study of Mus musculus with 12 samples.

Results

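The genes described here are 31 genes of cholesterol and fatty acid synthesis, fixed by name and measured in T cells purified from mouse spleen, out of 49315 genes in the count table. They comprise 18 enzymes of the cholesterol pathway, 5 genes that sense, carry or control sterols, 4 enzymes that build and lengthen fatty acids and 4 desaturases. All 31 were in the table, had reads in every library (at least 45 counts) and were tested in every comparison.

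RNA from splenic T cells was sequenced in 4 groups of 3 mice, one library per mouse. WT mice and mice with a global deletion of the microRNA miR-214 (miR-214-/-) were infused by osmotic minipump for 14 days with vehicle (sham) or with Ang II (angiotensin II, a hormone that raises blood pressure) at 490 ng/kg per day. All were 12-week-old males of S129/C57 background, and the study describes the WT animals as littermates of the knockout. The deletion was not restricted to T cells, so every cell of the miR-214-/- mice, and the sham controls of that genotype too, carried it.

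Libraries held 21126874 to 29605988 counts, of which these 31 genes took 0.162% to 0.198%. The microRNA's own gene, Mir214, had 0 counts in all 12 libraries, and its host transcript Dnm3os had a single count in 1 WT Ang II library, so the deletion could not be checked in poly(A) libraries at this depth. T cells had been enriched by removing other cells with magnetic beads rather than by picking T cells. The 8 T-cell genes on the marker list, Cd3e and Lck among them, were present in every library, with a summed level of 2214 to 3637 CPM (counts divided by the TMM-scaled library size, as the edgeR function gives them). Genes of other cells were not absent. Across the libraries, markers of red-cell precursors summed to 168 to 2626 CPM, of neutrophils to 192 to 3230 CPM and of plasma cells to 137 to 1777 CPM. Those of macrophages summed to 167 to 1146 CPM, of B cells to 37.5 to 302.8 CPM and of megakaryocytes to 15.8 to 54.7 CPM. In bulk RNA, fewer cells of a type and less RNA per cell cannot be told apart.

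Cells make cholesterol from acetyl-CoA through mevalonate, squalene and lanosterol, and make fatty acids from the same precursor through malonyl-CoA. Both routes are controlled by the SREBP transcription factors, encoded by Srebf1 and Srebf2, which are held in the endoplasmic reticulum with their escort Scap when sterols are plentiful, Insig1 being the anchor. When sterols fall, SREBPs are released, cut and sent to the nucleus, where they bind sterol regulatory elements close to the start of their target genes, often beside sites for NF-Y (CCAAT) and Sp1 (GGGCGG). T cells raise this programme when they are activated and divide, since new membrane has to be made.

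The promoters of 4 genes show these letters. They were chosen because Srebf2, Insig1 and Fads2 were the genes that passed the test in WT mice, and because Hmgcs1 held the longest match to a sterol regulatory element. Each sequence runs from 250 bases before to 50 bases after the RefSeq start site on GRCm38.p6, 5′ to 3′ on the strand of the gene, with capitals marking a match to TCACNCCA (a shortened sterol regulatory element) or CACGTG (an E-box). The windows are Hmgcs1 at chr13:119690101-119690400 (+ strand), Srebf2 at chr15:82147019-82147318 (+ strand), Insig1 at chr5:28071162-28071461 (+ strand) and Fads2 at chr19:10101454-10101753 (- strand).
Hmgcs1: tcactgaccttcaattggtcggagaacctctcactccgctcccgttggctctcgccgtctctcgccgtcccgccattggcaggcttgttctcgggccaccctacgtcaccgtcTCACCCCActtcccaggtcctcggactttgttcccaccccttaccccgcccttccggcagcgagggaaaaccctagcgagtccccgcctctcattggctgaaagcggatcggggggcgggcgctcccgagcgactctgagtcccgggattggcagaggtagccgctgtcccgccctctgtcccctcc
Srebf2: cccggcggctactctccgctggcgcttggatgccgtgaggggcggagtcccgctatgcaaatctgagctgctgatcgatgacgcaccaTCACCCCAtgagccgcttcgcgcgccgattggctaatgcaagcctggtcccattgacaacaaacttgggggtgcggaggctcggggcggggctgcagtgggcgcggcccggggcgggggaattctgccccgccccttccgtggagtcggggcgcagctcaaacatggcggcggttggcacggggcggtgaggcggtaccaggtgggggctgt
Insig1: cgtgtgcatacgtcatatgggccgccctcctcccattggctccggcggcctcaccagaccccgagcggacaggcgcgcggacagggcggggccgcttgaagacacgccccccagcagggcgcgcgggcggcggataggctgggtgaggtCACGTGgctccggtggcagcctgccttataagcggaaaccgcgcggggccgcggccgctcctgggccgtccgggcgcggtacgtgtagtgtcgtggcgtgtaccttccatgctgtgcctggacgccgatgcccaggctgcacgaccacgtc
Fads2: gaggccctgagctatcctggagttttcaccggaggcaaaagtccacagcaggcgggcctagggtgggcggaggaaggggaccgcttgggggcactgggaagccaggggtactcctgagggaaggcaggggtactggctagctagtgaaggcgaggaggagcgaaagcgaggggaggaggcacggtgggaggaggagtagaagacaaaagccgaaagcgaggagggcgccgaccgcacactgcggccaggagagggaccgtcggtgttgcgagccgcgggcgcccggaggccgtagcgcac

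Counted from the start site, the match in Hmgcs1 began at -137, that in Srebf2 at -162 and the E-box in Insig1 at -101. Fads2 had no match to either motif in this window, which says only that these letters are not there. Promoters were given for 24 of the 31 genes (those of Fdps, Fdft1, Sqle, Stard4, Scd1, Scd2 and Fads1 were not analysed here). On either strand, the longer element TCACNCCAC stood in 1 of 24 (4.17%, Hmgcs1) and in 1.44% of 27025 genes. The shorter TCACNCCA, which lies inside it, stood in 3 (12.5%, Hmgcs1, Msmo1 and Srebf2) against 4.97% of all genes. The E-box TCACGTGA was in 0 of 24 against 1.12%, and its inner CACGTG in 5 (20.8%, Hsd17b7, Sc5d, Dhcr7, Insig1 and Scap) against 8.09%. CCAAT was in 19 of 24 (79.2%) against 41.1% of all genes, and GGGCGG in 20 (83.3%) against 38.2%. The shares of all genes include genes without reads in these libraries, whereas the members had reads in every library. How the members compare with expressed genes alone was not tested. TCACNCCA and CACGTG were added to the search after the sequences had been seen.

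Levels per kilobase of exon sequence, averaged over the 12 libraries, spanned a wide range among the 31 genes. The length used was that of all annotated exons of a gene, merged over its transcripts. The highest was Acly, which makes cytosolic acetyl-CoA from citrate, at 56.1 CPM per kb. Srebf2 (38.2 CPM per kb), Srebf1 (21.1) and Fasn, the fatty acid synthase (20.0), followed. The lowest were Tm7sf2, a sterol reductase (2.33 CPM per kb), Fads2 (2.50), the lanosterol synthase Lss (2.54) and Acaca, the acetyl-CoA carboxylase (2.89). The merged exons of Lss (27.4 CPM) and Acaca (49.4 CPM) were long, at 10787 and 17074 bases, so their low place depends on the length used. Fads2, at the low end, was also the gene that varied most between libraries, 10.9-fold from lowest to highest, followed by the stearoyl-CoA desaturase Scd1 at 7.96-fold. Of the other 29, none varied by more than 2.50-fold (Sqle), and Nsdhl varied by only 1.18-fold.

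**Figure D1:**
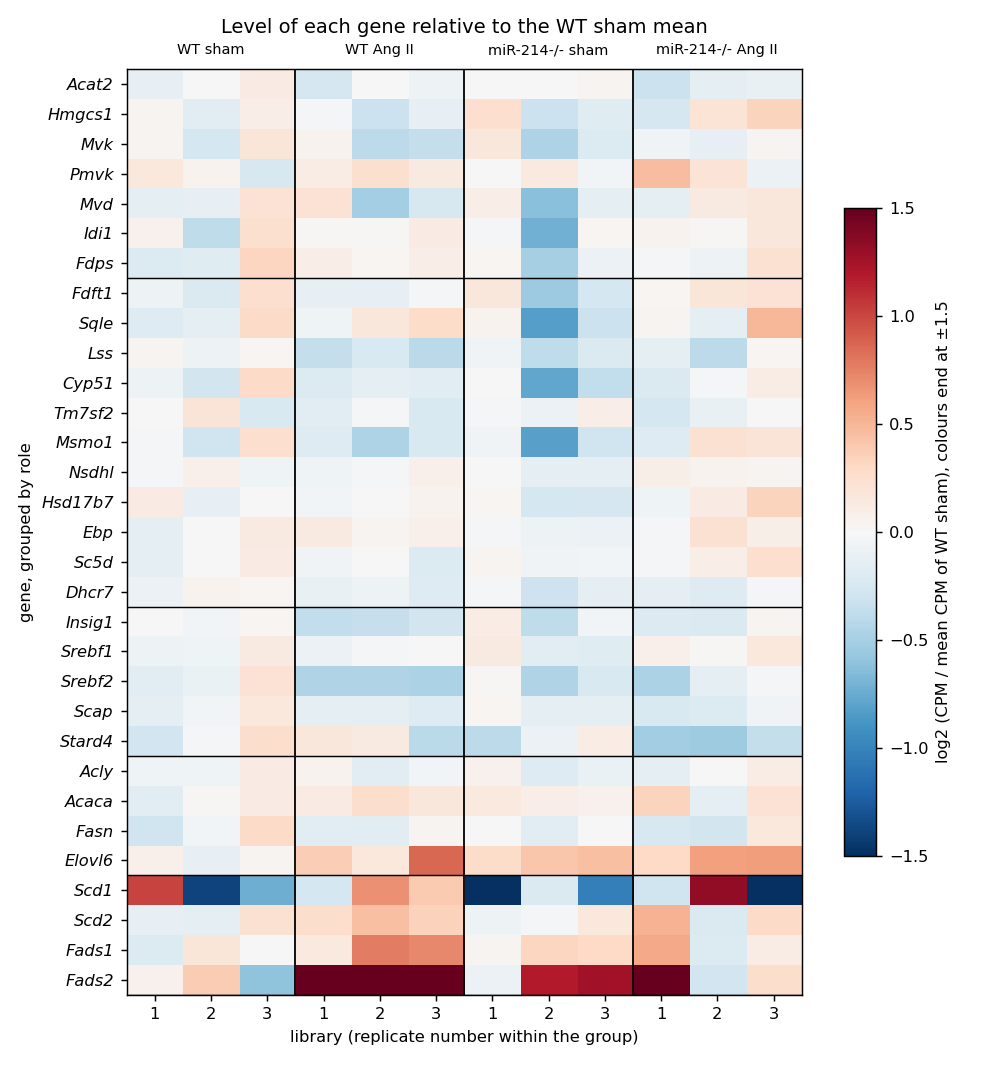
Level of each of the 31 genes (rows, in blocks by role) in each of the 12 libraries (columns, 3 per group), as log2 of CPM over the mean CPM of the WT sham libraries, with red for higher and blue for lower. Most of the map is pale. Fads2 is dark red in all 3 WT Ang II libraries and in miR-214-/- Ang II replicate 1, Srebf2 is blue in all 3 WT Ang II libraries, Scd1 varies strongly within groups, and miR-214-/- sham replicate 2 is blue for many cholesterol enzymes.

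The first comparison asked how Ang II changed these genes in T cells of WT mice. It changed 3 of the 31: Fads2, the enzyme of the first desaturation step of polyunsaturated fatty acids, rose 5.35-fold, while Srebf2, the SREBP of the cholesterol pathway, and Insig1, its sterol-dependent anchor, fell to 0.734 and 0.802 of their sham level. None of the 18 cholesterol enzymes changed, although the lanosterol synthase Lss was at the threshold. Over all genes tested, 18.8% passed the same test (edgeR, Benjamini-Hochberg adjusted p under 0.05), 11.7% higher and 7.06% lower, so 3 of 31 was no more than this background. The median log2 fold change of the 31 genes was -0.04, beside -0.02 for all genes, and 28 of the 31 lay within 0.5 of zero on the log2 scale. An unadjusted p under 0.05 was reached by 7 of the 31 and by 35.6% of all genes. With a further limit of 1 on the absolute log2 fold change, 1 gene remained (Fads2), where 7.3% of all genes did.

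Fads2 (ENSMUSG00000024665, chr19:10062765-10101746, - strand, GRCm38) stood at 3.2, 4.0 and 2.0 CPM in the WT sham libraries and at 9.0, 22.1 and 18.6 CPM in the WT Ang II libraries. The groups did not overlap, and the spread within the Ang II group was wide (16.6 ± 6.82 CPM against 3.09 ± 0.999, SD, n = 3). The log2 fold change was 2.42 (SE 0.39, 95% interval 1.499 to 3.34, edgeR adjusted p = 0.00944). It passed the test under all 14 alternatives tried for this comparison, with log2 fold changes of 2.16 to 2.72 and adjusted p-values of 2.353e-11 to 0.0458.

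RNA of dividing cells and of cells other than T cells was higher in the same libraries. All 10 cell-cycle genes rose in WT mice on Ang II, their summed level going from 507, 607 and 631 CPM to 1735, 2147 and 2156 CPM. Of the red-cell precursor list, 6 of the 9 genes in the table rose, and the sum went from 237, 234 and 270 CPM to 2626, 1757 and 1005 CPM. All 8 neutrophil genes rose as well. The 4 plasma-cell genes, whose sum was 266, 750 and 137 CPM in sham and 507, 1453 and 1777 CPM on Ang II, gave 1 gene that rose (Xbp1). The part of these cells in the Fads2 result was not tested. In the libraries taken singly, Fads2 was highest in WT Ang II replicates 2 and 3, which also had the highest plasma-cell and cell-cycle sums, and the third highest was miR-214-/- Ang II replicate 1 (16.2 CPM, plasma-cell sum 1153 CPM). In miR-214-/- Ang II replicate 2 the red-cell sum was 1948 CPM and Fads2 was 2.5 CPM. Most of that sum came from 1 gene of the list, the globin gene Hba-a1 (1332 CPM), so it says little about the others. The same limit holds for the plasma-cell sums in WT Ang II, which came mostly from Jchain (mean 1076 CPM). Beside it, the means there were 131.8 CPM for Xbp1, 22.9 CPM for Prdm1 and 14.3 CPM for Sdc1. The highest Jchain level in miR-214-/- Ang II was 1003 CPM.

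Srebf2 (ENSMUSG00000022463, chr15:82147181-82205379, + strand) was measured at 284.9, 296.4 and 368.9 CPM in WT sham and at 232.6, 231.4 and 228.5 CPM in WT Ang II. Every sham library lay above every Ang II library, and the Ang II libraries were nearly level (230.8 ± 2.10 CPM, against 316.7 ± 45.6 CPM, SD, n = 3). The log2 fold change was -0.45 (SE 0.10, 95% interval -0.69 to -0.21, edgeR adjusted p = 0.0273). The call was lost without WT sham replicate 2 (adjusted p = 0.0523), WT Ang II replicate 2 (0.0716) or WT Ang II replicate 3 (0.101), and the adjusted p ranged from 0.00408 to 0.101 over 14 alternatives.

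Insig1 (ENSMUSG00000045294, chr5:28071363-28078662, + strand) stood at 46.2, 44.7 and 47.0 CPM in WT sham and at 35.7, 36.0 and 38.1 CPM in WT Ang II. The gap between the groups was wider than the spread inside either (45.9 ± 1.17 against 36.6 ± 1.29 CPM, SD, n = 3). The log2 fold change was -0.32 (SE 0.07, 95% interval -0.49 to -0.14, edgeR adjusted p = 0.0284). This call was lost in 7 of 14 alternatives, 5 of which left out a single library (adjusted p of 0.0699 to 0.0845, for any WT library but WT Ang II replicate 1), and the range over all 14 was 0.0231 to 0.0906. T-cell markers fell in the same libraries. Of the 8, 7 passed the test, the median log2 fold change was -0.49, and their sum went from 3206, 3501 and 3637 CPM to 2575, 2536 and 2214 CPM. The part of a smaller share of T-cell RNA in the results for Srebf2 and Insig1 was not tested.

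**Figure D2:**
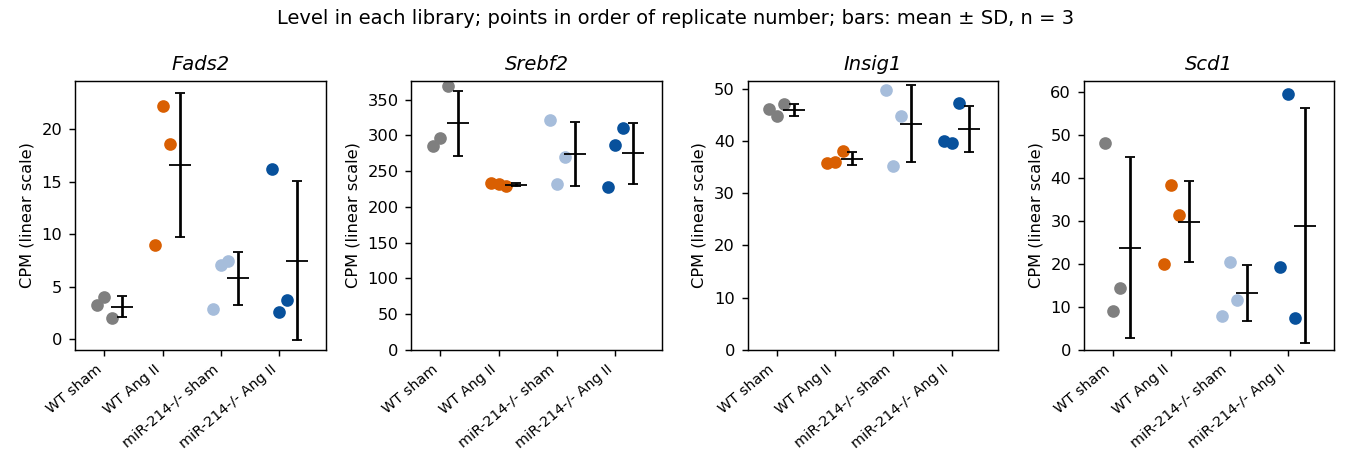
CPM on a linear scale of Fads2, Srebf2, Insig1 and Scd1 in each library of the 4 groups (points, in order of replicate number), with the mean ± SD beside them (n = 3). In WT mice the sham and Ang II points do not overlap for Fads2, Srebf2 and Insig1, in miR-214-/- mice they overlap for all 4 genes, and Scd1 spreads from 7.5 to 59.6 CPM with no separation by group.

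The other control genes did not pass the test in WT mice. Srebf1, whose product acts mainly on fatty acid genes, was at 112.6, 113.6 and 131.1 CPM in sham and 112.4, 116.4 and 118.5 CPM on Ang II (log2 fold change -0.03, 95% interval -0.21 to 0.15). The groups of Scap met almost exactly, with the lowest sham library at 89.93 CPM and the highest Ang II library at 89.92 CPM (log2 fold change -0.14, adjusted p = 0.257). Stard4, a carrier that moves cholesterol between membranes, had a log2 fold change of 0.00 with a 95% interval of -0.44 to 0.44.

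All 4 desaturases had log2 fold changes above zero in WT mice, although Fads2 alone passed the test and Scd1 turned negative without WT sham replicate 2. Scd2, the more abundant of the stearoyl-CoA desaturases, which place the double bond of monounsaturated fatty acids, was at 83.4, 82.8 and 106.5 CPM in sham and 109.5, 123.8 and 115.1 CPM on Ang II. The groups did not overlap, with a log2 fold change of 0.36 (SE 0.11, adjusted p = 0.0553). Fads1, the desaturase that acts after Fads2 and lies close to it on chromosome 19, was at 22.4, 29.1 and 25.7 CPM in sham and 28.5, 43.7 and 42.5 CPM on Ang II, where WT Ang II replicate 1 lay among the sham libraries (log2 fold change 0.58, SE 0.18, adjusted p = 0.0636). Both fell just short of the threshold, and both passed it with DESeq2, with adjusted p-values of 0.0289 for Scd2 (0.0233 to 0.161 over 14 alternatives) and 0.0111 for Fads1 (0.00738 to 0.201).

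Scd1 is described because of its spread, a choice made after its values were seen. In WT sham it was at 48.0, 9.1 and 14.3 CPM, in WT Ang II at 19.8, 38.3 and 31.3 CPM, in miR-214-/- sham at 7.7, 20.5 and 11.7 CPM and in miR-214-/- Ang II at 19.3, 59.6 and 7.5 CPM. The SD within groups was 1.06 on the log2 scale, against 0.0700 to 0.909 for the other 30 genes. The summed level of 4 B-cell genes (Cd79a, Cd79b, Ms4a1 and Pax5) was 221.4, 47.3 and 68.2 CPM, then 78.7, 117.4 and 79.4, then 37.5, 68.2 and 47.9, and then 63.2, 302.8 and 38.7 CPM in the same order. The libraries with the highest Scd1, miR-214-/- Ang II replicate 2 and WT sham replicate 1, had the highest B-cell sums, and those with the lowest Scd1, miR-214-/- Ang II replicate 3 and miR-214-/- sham replicate 1, had the lowest. None of the 4 B-cell genes changed in any comparison by edgeR, and their part in the level of Scd1 was not tested. No group difference was detectable for Scd1 at this spread: the 95% interval of its log2 fold change in WT mice ran from -1.07 to 1.73.

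**Figure D3:**
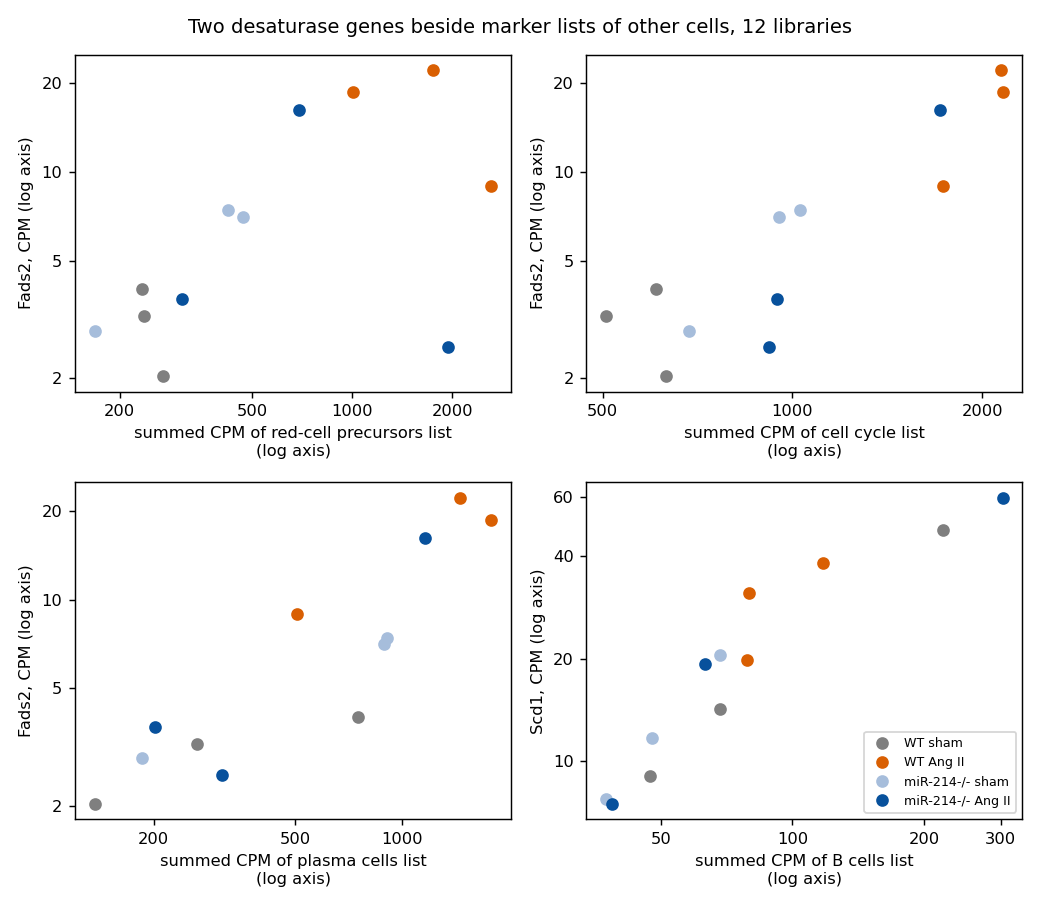
Level of Fads2 against the summed CPM of the red-cell precursor, cell-cycle and plasma-cell lists, and of Scd1 against the B-cell list, each point 1 of the 12 libraries and both axes logarithmic. Libraries with higher cell-cycle or plasma-cell sums tended to have more Fads2, and those with more B-cell RNA more Scd1. In miR-214-/- Ang II replicate 2 the red-cell sum was 1948 CPM, of which Hba-a1 was 1332 CPM, and Fads2 was 2.5 CPM. The plasma-cell panel was added after the values were seen, and in WT Ang II its sum came mostly from Jchain (mean 1076 CPM).

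The enzymes that build fatty acids did not pass the test in WT mice. Acly was at 288.3, 289.0 and 330.1 CPM in sham and 312.9, 268.0 and 294.2 CPM on Ang II, and the groups overlapped fully (log2 fold change -0.04, 95% interval -0.26 to 0.18). Fasn was at 185.0, 221.3 and 278.0 CPM in sham and 204.7, 202.1 and 234.8 CPM on Ang II (log2 fold change -0.08, 95% interval -0.43 to 0.26). Acaca, which commits acetyl-CoA to fatty acids, and Elovl6, which lengthens palmitate, were higher in every Ang II than in every sham WT library. Their log2 fold changes were 0.20 (SE 0.09, adjusted p = 0.150) and 0.50 (SE 0.19, adjusted p = 0.108). Of the 100-base stretches of Acaca, 23.7% also occur in other annotated genes, so its counts are uncertain.

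Among the 18 cholesterol enzymes, log2 fold changes in WT mice lay between -0.32 and 0.17 with a median of -0.08 (-0.12 without WT sham replicate 1 and -0.01 without WT sham replicate 3), and 7 were above and 11 below zero. Of all genes, 51.6% were below zero. In the mevalonate arm, Hmgcs1, which makes HMG-CoA, was at 65.9, 56.9 and 68.7 CPM in sham and 62.4, 51.0 and 58.5 CPM on Ang II (log2 fold change -0.15, 95% interval -0.41 to 0.12). Acat2, the thiolase at the head of the pathway, was at 22.2, 24.1 and 26.5 CPM in sham and 20.4, 24.4 and 23.0 CPM on Ang II (log2 fold change -0.09, 95% interval -0.36 to 0.17). For both genes the groups overlapped. Acat2 shares 28.9% of its 100-base stretches with other genes, Acat3 and Tcp1, and its level is uncertain for that reason. Mvk, Pmvk, Mvd, Idi1 and Fdps, the kinases, decarboxylase, isomerase and farnesyl diphosphate synthase of this arm, had log2 fold changes of -0.21 to 0.17. Counts of Idi1 and Fdps are uncertain as well, since 21.9% and 21.4% of their 100-base stretches occur in other genes.

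In the squalene and sterol arm, Sc5d, a sterol desaturase, was at 37.5, 41.3 and 45.0 CPM in sham and 39.8, 41.2 and 35.8 CPM on Ang II (log2 fold change -0.07, 95% interval -0.30 to 0.15). Cyp51, the lanosterol demethylase, was at 38.4, 33.4 and 49.3 CPM in sham and 34.9, 36.8 and 36.0 CPM on Ang II (log2 fold change -0.16, 95% interval -0.50 to 0.17). Ang II libraries lay inside the sham range for Cyp51, and WT sham replicate 3 stood above the rest. Lss, which closes the sterol rings, came closest to the threshold. It was at 31.7, 29.3 and 31.3 CPM in sham and 24.1, 26.3 and 23.2 CPM on Ang II, with no overlap (log2 fold change -0.32, SE 0.09, adjusted p = 0.0513). It passed under 1 of 14 alternatives, the adjusted-deviance fit (adjusted p = 0.0451, over a range of 0.0451 to 0.199). Fdft1, Sqle, Tm7sf2, Msmo1, Nsdhl, Hsd17b7, Ebp and Dhcr7, which carry out the other steps from farnesyl diphosphate to cholesterol, had log2 fold changes of -0.28 (Msmo1) to 0.14 (Sqle). Fdft1 shares 18.3% of its stretches with other genes, chiefly Ctsb on the opposite strand, and is uncertain. In all, WT groups did not overlap with Ang II higher for 4 of the 31 genes (Acaca, Elovl6, Scd2 and Fads2), where 19.7% of all genes did so, and with Ang II lower for 4 (Lss, Insig1, Srebf2 and Scap), where 20.9% did.

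In miR-214-/- mice, Ang II changed none of the 31 genes by edgeR. The smallest adjusted p was 0.367 (Stard4, log2 fold change -0.35, 95% interval -0.66 to -0.05), and 1 gene, the same Stard4, had an unadjusted p under 0.05. DESeq2 also called 0 of the 31. Over all genes edgeR called 0%, with 12.2% at an unadjusted p under 0.05, and DESeq2 called 0.976%. The median log2 fold change of the 31 was 0.15, beside 0.03 for all genes, and 24 of the 31 were above zero. Of all genes, 45.5% were below zero.

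The genes that changed in WT mice gave wide overlaps here. Fads2 was at 2.9, 7.0 and 7.4 CPM in miR-214-/- sham and at 16.2, 2.5 and 3.7 CPM in miR-214-/- Ang II. A single Ang II library was high, and the log2 fold change was 0.38 with a 95% interval of -1.32 to 2.08. Without that library, replicate 1, it was -0.89 (adjusted p = 0.418, with 0.418 to 0.983 over 14 alternatives). Srebf2 was at 321.1, 231.8 and 269.7 CPM in sham and 227.6, 286.9 and 309.8 CPM on Ang II (log2 fold change 0.00, 95% interval -0.37 to 0.38). Insig1 was at 49.8, 35.2 and 44.8 CPM in sham and 39.9, 39.6 and 47.3 CPM on Ang II (log2 fold change -0.03, 95% interval -0.37 to 0.31). The interval of Insig1 held the WT value of -0.32, and that of Srebf2 reached to -0.37, inside the WT interval but short of the WT value of -0.45.

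Of the 18 cholesterol enzymes, 16 had log2 fold changes above zero in miR-214-/- mice, where 45.5% of all genes were below zero. Their median was 0.18, with a range of -0.20 to 0.48, and none passed the test. When single libraries were left out, the median ranged from 0.09 without miR-214-/- sham replicate 2, the library with the lowest enzyme levels (13 of 18 above zero), to 0.30 without miR-214-/- sham replicate 1 (16 of 18). Hmgcs1 was at 76.1, 51.2 and 56.5 CPM in sham and 53.7, 73.5 and 80.4 CPM on Ang II (log2 fold change 0.18, 95% interval -0.28 to 0.63). Acat2 was lower in every Ang II library, at 24.3, 24.1 and 24.9 CPM in sham and 19.3, 22.1 and 22.4 CPM on Ang II (log2 fold change -0.20, 95% interval -0.44 to 0.04). Cyp51 was at 40.1, 23.5 and 31.3 CPM in sham and 34.9, 39.4 and 43.5 CPM on Ang II (log2 fold change 0.31, 95% interval -0.15 to 0.77). Sc5d was at 42.4, 39.9 and 40.3 CPM in sham and 40.6, 44.1 and 49.1 CPM on Ang II (log2 fold change 0.13, 95% interval -0.08 to 0.34). The groups overlapped for Hmgcs1, Cyp51 and Sc5d. They did not overlap with Ang II higher for 2 of the 31 genes (Nsdhl and Ebp, 9.11% of all genes), nor with Ang II lower for 1 (Acat2, 10.3% of all genes).

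Fatty acid genes of miR-214-/- mice were also spread across the groups. Acly was at 317.4, 264.3 and 282.1 CPM in sham and 275.7, 302.5 and 327.8 CPM on Ang II, and Fasn at 227.7, 204.1 and 228.5 CPM in sham and 193.7, 188.8 and 253.9 CPM on Ang II. Srebf1 was at 131.1, 106.5 and 105.2 CPM in sham and 126.0, 120.3 and 132.7 CPM on Ang II. The groups overlapped for each of these genes. Scd2 was at 86.5, 90.1 and 101.4 CPM in sham and 130.7, 78.3 and 110.8 CPM on Ang II, and Fads1 at 26.4, 32.2 and 31.6 CPM in sham and 38.1, 22.3 and 27.9 CPM on Ang II. As with Fads2, replicate 1 of the Ang II group had the highest value and replicate 2 the lowest for both desaturases.

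**Figure D4:**
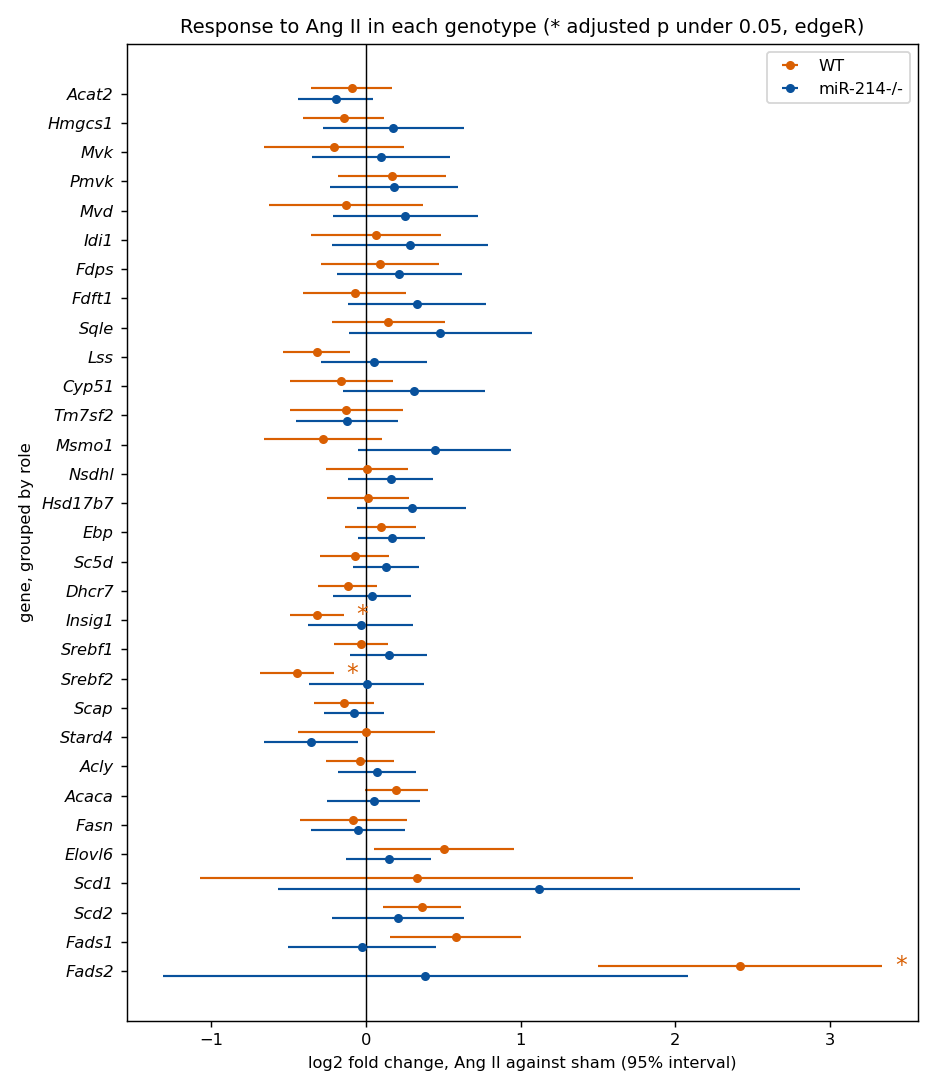
Log2 fold change of Ang II against sham for each of the 31 genes (points) with its 95% interval (lines), in WT mice (orange) and in miR-214-/- mice (blue), and with asterisks at the 3 genes that passed the test. Fads2 in WT mice lies far to the right of the rest at 2.42, Srebf2 and Insig1 lie left of zero in WT mice and at zero in miR-214-/- mice, and the intervals of Scd1 and of Fads2 in miR-214-/- mice are the widest.

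Cholesterol enzymes varied from library to library within groups. The mean over the 18 enzymes of log2 CPM, after each gene's mean over all libraries was subtracted, was lowest in miR-214-/- sham replicate 2 at -0.32, where 10 of the 18 enzymes had their lowest level of the 12 libraries. For example Sqle, the squalene epoxidase, was at 16.8 CPM there and at 30.7 and 23.8 CPM in the other miR-214-/- sham libraries, and Msmo1, a sterol methyl oxidase, was at 15.6 CPM against 26.4 and 22.4 CPM. The mean was highest in miR-214-/- Ang II replicate 3 (0.19, with 4 highest levels) and WT sham replicate 3 (0.17, with 8 highest levels). The other 9 libraries lay between -0.09 and 0.09. The miR-214-/- sham group thus held values from -0.32 to 0.09, and the WT Ang II group was the tightest, from -0.05 to 0.00.

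**Figure D5:**
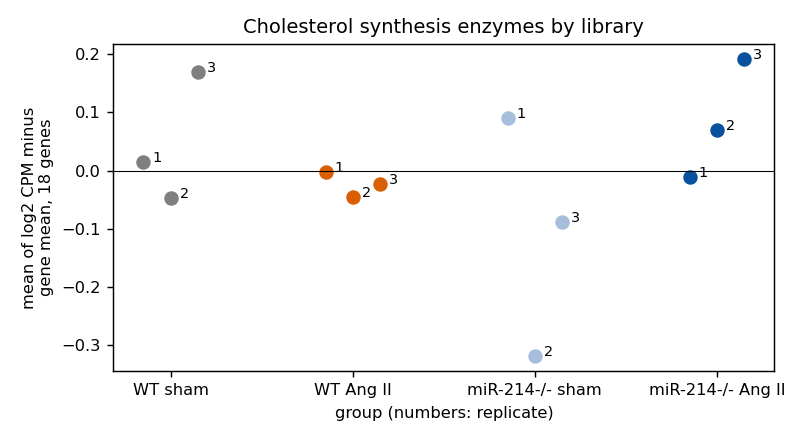
Mean over 18 cholesterol enzymes of log2 CPM minus each gene's mean over the 12 libraries, for each library (points, numbered by replicate) in the 4 groups. The lowest point is miR-214-/- sham replicate 2 at -0.32 and the highest is miR-214-/- Ang II replicate 3 at 0.19, and the groups overlap.

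The next comparisons set the genotypes side by side, first in sham mice. No gene of the 31 differed between miR-214-/- and WT sham mice by edgeR, where 0.0251% of all genes did, nor by DESeq2, where 0.333% did. Elovl6 alone had an unadjusted p under 0.05, as did 6.67% of all genes. It was at 22.0, 19.3 and 21.5 CPM in WT sham and 25.3, 28.0 and 28.6 CPM in miR-214-/- sham, with no overlap (log2 fold change 0.37, SE 0.10, adjusted p = 0.701). The median over the 31 was -0.10, beside -0.01 for all genes. Of the cholesterol enzymes, 17 of 18 were below zero, where 52.4% of all genes were. Their median was -0.16. It ranged from -0.28 without miR-214-/- sham replicate 1 to -0.04 without miR-214-/- sham replicate 2, each with 15 of 18 below zero, and was -0.08 without WT sham replicate 3. WT and miR-214-/- sham libraries did not overlap for 1 of the 31 genes with the knockout higher (Elovl6, 5.68% of all genes) and for 0 with the knockout lower (4.48%).

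On Ang II, again none of the 31 differed between the genotypes by edgeR (0% of all genes) or DESeq2 (0.115%), and 2 had an unadjusted p under 0.05, where 8.56% of all genes did. Msmo1 was at 24.0, 20.0 and 23.5 CPM in WT Ang II and 24.1, 32.2 and 31.4 CPM in miR-214-/- Ang II (log2 fold change 0.38, SE 0.15, adjusted p = 0.569). Stard4 was at 72.7, 71.0 and 48.5 CPM in WT Ang II and 44.9, 44.4 and 50.3 CPM in miR-214-/- Ang II, where WT replicate 3 lay among the knockout libraries (log2 fold change -0.46, SE 0.16, adjusted p = 0.569). The median over the 31 was 0.03, beside 0.00 for all genes. The median over the cholesterol enzymes was 0.10, with 16 of 18 above zero, but 11 of 18 with scaling by library size alone and 12 of 18 without miR-214-/- Ang II replicate 3. Of all genes, 49.8% were below zero. The genotypes did not overlap for 4 of the 31 genes with the knockout higher (Fdft1, Msmo1, Insig1 and Srebf1, 7.96% of all genes) and for 0 with the knockout lower (5.95%).

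Whether the response to Ang II itself differed between the genotypes was tested as an interaction. It was not past the threshold for any of the 31 genes by edgeR or DESeq2, where edgeR called 0.00596% and DESeq2 1.47% of all genes, and 4 of the 31 had an unadjusted p under 0.05 (14.8% of all genes). These were Msmo1 (log2 difference of the responses, miR-214-/- minus WT, 0.74, SE 0.28, adjusted p = 0.279), Srebf2 (0.47, SE 0.20, adjusted p = 0.321), Lss (0.39, SE 0.17, adjusted p = 0.330) and Fads2 (-2.04, SE 0.91, adjusted p = 0.329). A fall of Srebf2 and Insig1 and a rise of Fads2 that passed the test in WT mice alone are therefore not shown to differ from the response of miR-214-/- mice. The difference for Fads2 depended on miR-214-/- Ang II replicate 1. Without that library it was -3.30 and passed the test (adjusted p = 0.0247, over a range of 0.0247 to 0.571 in 19 alternatives), in a fit that called 5.35% of all genes. The median interaction of the 31 was 0.17, beside 0.01 for all genes. For the cholesterol enzymes it was 0.27, with 17 of 18 above zero, where 48.5% of all genes were below zero. Their log2 fold changes had a median of -0.08 in WT mice and of 0.18 in miR-214-/- mice. Since 10 of the 18 enzymes had their lowest level in miR-214-/- sham replicate 2, their signs are not separate results. With single libraries left out, the median interaction of the enzymes ranged from 0.17 without miR-214-/- sham replicate 2 to 0.38 without WT sham replicate 2, each with 16 of 18 above zero. The comparisons share libraries with one another.

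Genes around these pathways also gave calls in WT mice, where 18.8% of all genes changed, 11.7% rising and 7.06% falling. Of 22 further SREBP-linked genes, 20 could be tested, of which 5 rose and 1 fell. The genes that rose were Tmem97, a sterol-regulated membrane protein (8.50 ± 1.48 to 15.1 ± 3.53 CPM, SD, n = 3, log2 fold change 0.84), Gpam, which starts triglyceride synthesis (0.53), Cyb5r3, a reductase that feeds electrons to desaturases (0.45), Slc25a1, the mitochondrial citrate carrier (0.44), and the elongase Elovl1 (0.39). Another elongase, Elovl5, which lengthens polyunsaturated fatty acids, fell from 199.6 ± 20.5 to 153.9 ± 12.4 CPM (log2 fold change -0.37, adjusted p = 0.0349).

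Of 10 genes of sterol export and esterification, 2 rose and 1 fell. Scarb1, the receptor that exchanges cholesterol with high-density lipoprotein, was at 23.0, 24.0 and 21.8 CPM in WT sham and 55.5, 43.1 and 52.9 CPM in WT Ang II, well apart (log2 fold change 1.15, SE 0.12, edgeR adjusted p = 0.00277). In miR-214-/- mice it was at 25.6, 25.7 and 30.3 CPM in sham and 44.7, 31.1 and 32.1 CPM on Ang II, also with no overlap, but short of the threshold (log2 fold change 0.41, adjusted p = 0.400, interaction adjusted p = 0.216). Lpcat3, a phospholipid acyltransferase, rose by a log2 fold change of 0.51. Mylip, which degrades the LDL receptor, fell from 103.1 ± 7.85 to 67.2 ± 8.32 CPM (log2 fold change -0.61, adjusted p = 0.00992). Of 10 fatty acid oxidation genes, Cpt1a, the gate of mitochondrial import (log2 fold change 0.60), and Acadl, an acyl-CoA dehydrogenase (0.97), rose and none fell, a share near that of all genes. Median log2 fold changes of these lists were 0.01, -0.09 and 0.25, beside -0.02 for all genes. The counts stand beside the same rise of red-cell, neutrophil and cell-cycle genes in WT mice on Ang II, whose part in them was not tested. In miR-214-/- mice, between the genotypes and in the interaction, edgeR called 0 of these genes.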

How the data were processed

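T cells were isolated from spleen and poly(A) stranded libraries sequenced by the submitters. The authors deposited a single table of raw counts per Ensembl gene (reads were trimmed with Trimmomatic, mapped with STAR and the uniquely mapped exonic reads counted, per the study's methods, with featureCounts from Subread 1.5.2 on GRCm38, per the labels, while the annotation release and strand setting are not given in the sources used here). Symbols were matched to 48970 of 49315 identifiers. Low genes were removed with filterByExpr, libraries scaled by TMM, and each comparison fitted on its own libraries by the quasi-likelihood test of edgeR 4.0.16 in R 4.3.3 (the interaction on all 12), with adjustment over all genes tested. Calls required an adjusted p under 0.05. The fit was tested on simulated data. DESeq2 1.42.0 and other settings served as alternatives. DESeq2 was run without filterByExpr, so its shares of all genes are over 28204 to 30175 genes. Genes with a p-value but no adjusted p from DESeq2 stayed in these totals and counted as not called. That lowers its shares beside those of edgeR. Those of the main edgeR fits are over 15913 to 16770 genes. No columns of other series were present. With no other replicate check than 3 mice a group, an exact permutation test cannot go below p = 0.1. Library totals of 21126874 to 29605988 limit precision for low genes.

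The 31 genes and all lists were chosen with earlier results of these data known. Values in every library were given for genes past the threshold in any comparison and for the pair with the highest mean CPM in each role group. The other genes were summarised, except that Lss, Elovl6, Msmo1, Stard4, Scd1 and, in 1 group, Sqle were chosen for such values after they had been seen. A gene of the B-cell list is not reported here and was left out of its sum. Exon lengths, coordinates and shared 100-base stretches came from GENCODE vM21 transcripts on GRCm38, and promoters from RefSeq on GRCm38.p6.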

Additional observations from a re-analysis of the deposited data

How the results depend on the processing

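The count of genes changed by Ang II in WT mice (3) was 6 with DESeq2 (Insig1, Srebf2, Elovl6, Scd2, Fads1 and Fads2). DESeq2 called 3711 of 28509 genes (13%) without filterByExpr, with genes lacking an adjusted p counted as not called. After filterByExpr, edgeR called 3009 of 16012 (18.8%). The count was 1 with the added limit on fold change, and ranged from 1 to 4 when a single library was left out. It was 1 (Fads2) without WT sham replicate 2, WT Ang II replicate 2 or WT Ang II replicate 3. The interaction count was 0 to 1 over the libraries left out. In miR-214-/- mice and between the genotypes it was 0 under every setting tried. Deviations of same-numbered libraries from their group means correlated at 0.20, 0.11 and -0.14 in WT mice and at -0.56, -0.23 and -0.37 in miR-214-/- mice. Between genotypes the correlations were 0.02, 0.20 and -0.28 in sham and -0.42, -0.17 and -0.12 on Ang II. These values gave no sign that the numbers pair mice, but they cannot exclude a weak pairing beside the spread between libraries. With a replicate block 4 genes were called in WT mice (Fads1 was added), and the block changed no other call. The median log2 fold change of the 31 genes, with each library left out in turn, was lowest at -0.11 (WT sham replicate 1 left out) and highest at 0.02 (replicate 3 left out) in WT mice, and ranged from 0.08 to 0.15 in miR-214-/- mice (lowest without sham replicate 2). It ranged from -0.18 (without miR-214-/- sham replicate 1) to -0.03 (without miR-214-/- sham replicate 2) between sham genotypes, from 0.03 to 0.08 on Ang II (highest without miR-214-/- replicate 1) and from 0.10 to 0.25 for the interaction (without miR-214-/- sham replicates 2 and 1).

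When a library was left out, the sign changed for 0 to 7 of the 31 genes per comparison, none of them called in the full data. In 10 results the sign changed and the value moved from that of the full data by more than its standard error there. In WT mice the log2 fold change ranged from -0.18 to 0.068 for Fdft1, -0.28 to 0.0024 for Cyp51 and -0.21 to 0.079 for Fasn, and in miR-214-/- mice from -0.89 to 0.78 for Fads2. Between genotypes it ranged in sham from -1.30 to 0.19 for Scd1, -0.19 to 0.11 for Fasn and -0.21 to 0.034 for Insig1, and on Ang II from -0.30 to 0.066 for Scd2 and -0.17 to 0.16 for Sqle. The interaction for Scd1 ranged from -0.30 to 1.26. The causes were not tested. Genes at a few CPM, such as Fads2, carry the least depth.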
